A study of Mus musculus with 16 samples.

Results

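Caveolae are small flask-shaped pits of the plasma membrane, and 9 genes that build or shape them are described here: Cavin1, Cavin2, Cavin3, Cav1, Cav2, Ehd1, Ehd2, Ehd4 and Pacsin2. They were found by symbol among 52636 gene identifiers of a raw count table, and all 9 symbols had a row. Cavin1 was chosen by its counts at 0h, 4h and rev in an earlier analysis of these libraries, and the others because they belong to the same structure. Its levels and fold changes between the groups are therefore a description without a test. Of the remaining genes, Ehd1, Ehd4 and Pacsin2 passed the expression filter and were tested within the fit over all genes.

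The cells were mouse embryonic stem cells of the line CRAFR26, which carries a tamoxifen-inducible form of the kinase c-RAF, so that 4-hydroxytamoxifen (4OHT) switches on the ERK pathway. They were grown in 2i/LIF medium, and in every group the MEK inhibitor of that medium (PD03) had been replaced for 48 h by the FGF receptor inhibitor PD17 at 250 nM. The groups were 0h (no 4OHT), 2h and 4h (250 nM 4OHT for 2 h or 4 h) and rev (4 h of 4OHT, then 2 h more with a MEK inhibitor). Each group held 4 libraries of total RNA depleted of ribosomal RNA, 2 from clone 4 and 2 from clone 8. All groups thus carried the construct and PD17, and the labels name no culture given the 4OHT vehicle or kept for the same total time without MEK inhibitor. The inhibitor and the added time cannot be told apart in rev.

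A caveola is made of caveolins, which insert into the inner leaflet and bind cholesterol, and of cavins, which form a coat on the cytoplasmic side. Cavin-1 is needed for caveolae in all tissues studied and caveolin-1 for those outside muscle, whereas caveolin-2, cavin-2 and cavin-3 join and modify the coat. EHD2 is an ATPase that encircles the neck and holds the pit at the surface, and EHD1 and EHD4 are related ATPases best known from endocytic recycling. PACSIN2 is an F-BAR protein that bends membrane at the neck. Caveolae are abundant in fibroblasts, endothelium, fat and muscle.

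Cavin1 (ENSMUSG00000004044) lies on the minus strand of chromosome 11, at chr11:100956733-100970887 in GRCm38. Cav2 (chr6:17281185-17289115) and Cav1 (chr6:17306335-17341452) lie side by side on the plus strand of chromosome 6, and Cavin2 lies on the plus strand at chr1:51289126-51302960. The sequences below, from RefSeq on GRCm38.p6, are the 250 bases before the start of the genes with 0 counts, and a 30-base stretch before that of Cavin1, the gene whose level differed most between groups. They are shown because Cavin1 and these genes act in 1 structure, yet the latter had no count in any library. Capitals mark a CCAAT box (CCAAT), a GC box (GGGCGG) or an AP-1 motif (TGANTCA), searched on both strands. The Cavin1 window lies before the RefSeq start. All 250 of its bases, the stretch included, lie in exon sequence of the longer GENCODE gene model, so only the stretch is given.
Cavin1, minus strand, chr11:100970663-100970692: gggtggggccagCCAATggccgacgggact
Cav1, plus strand, chr6:17306085-17306334: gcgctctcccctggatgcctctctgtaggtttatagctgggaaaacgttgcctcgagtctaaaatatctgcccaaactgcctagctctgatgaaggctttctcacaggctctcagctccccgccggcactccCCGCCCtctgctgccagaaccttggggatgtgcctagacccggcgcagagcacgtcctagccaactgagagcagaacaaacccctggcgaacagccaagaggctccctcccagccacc
Cav2, plus strand, chr6:17280935-17281184: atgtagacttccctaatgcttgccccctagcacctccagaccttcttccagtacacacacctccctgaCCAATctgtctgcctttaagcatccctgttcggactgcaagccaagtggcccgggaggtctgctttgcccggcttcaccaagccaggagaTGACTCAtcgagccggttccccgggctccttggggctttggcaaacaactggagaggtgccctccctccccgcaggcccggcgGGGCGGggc
Cavin2, plus strand, chr1:51288876-51289125: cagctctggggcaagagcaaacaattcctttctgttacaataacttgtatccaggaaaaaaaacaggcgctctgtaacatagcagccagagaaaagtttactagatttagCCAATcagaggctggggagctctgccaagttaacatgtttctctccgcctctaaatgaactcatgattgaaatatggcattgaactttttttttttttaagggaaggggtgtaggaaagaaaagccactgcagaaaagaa

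Of the 9 genes, 7 had a window in the RefSeq promoter table, and Cavin3 and Ehd1 are named only. Counted back from the start, the Cavin1 window held a CCAAT box at base -63, a GC box at -7 and a TEAD motif (CATTCC) at -247. The Cav2 window held the AP-1 motif of the set, at -92, beside a CCAAT box and a GC box. The Cav1 window held a GC box and the Cavin2 window a CCAAT box. No window of the 7 held the letters of an EGR motif (GCGNGGGCG), an ETS motif (CCGGAAGT) or a CArG box, the site of SRF. Over 27025 windows of the same length, 34.5% held a CCAAT box, 32.9% a GC box, 12.6% the TEAD motif, 6.87% the AP-1 motif, 4.65% the EGR motif, 2.93% the ETS motif and 1.40% a CArG box. CpG content, as the ratio of observed to expected CpG, was 0.437 for Cavin1, 0.471 for Cav1, 0.427 for Cav2 and 0.198 for Cavin2, where all windows had a median of 0.378 and quartiles of 0.165 and 0.726. Pacsin2 (0.758) and Ehd4 (0.897) lay above the upper quartile. A match in these letters is a description and not a binding site.

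The libraries held between 2172651 and 12680303 counts. The 8 most abundant gene models took 42.0% to 80.4% of each, highest in rev clone 8 replicate 2. Levels are therefore given as CPM, the counts as a proportion of a library size scaled by TMM factors, and between genes as RPKM, the CPM per kilobase of exon. The induction was visible in 6 of 6 ERK response genes, which rose at 2h and at 4h, where 11.4% and 17.2% of all 12215 tested genes were higher, and fell from 4h to rev, where 16.4% were called in either direction. Spry4, a feedback inhibitor of the pathway, had a mean of 0.998 CPM at 0h, 245 at 4h and 3.12 in rev, and Dusp6, an ERK phosphatase, had 1.25, 55.2 and 1.59. All 9 embryonic stem cell markers were counted, with a summed level of 1718 to 2420 CPM and Tfcp2l1 as the highest. Of these, 5 rose and 3 fell at 4h against 0h, Nanog among the latter by 0.68 (adjusted p = 4.0e-09), and 3 rose and 5 fell from 4h to rev. Over all tested genes 17.2% were higher and 16.8% lower at 4h, and 16.4% were called from 4h to rev. The part of these marker changes in those of the caveola genes was not tested.

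Cavin1 was the member that differed most between groups. It had 4.07 and 3.13 CPM in the 0h libraries of clone 4 (replicates 1 and 2) and 5.63 and 3.74 in those of clone 8. At 2h it had 30.2 and 24.1 CPM in clone 4 and 20.7 and 20.1 in clone 8. At 4h it had 64.3 and 54.7 CPM in clone 4 and 39.3 and 31.3 in clone 8. Every library at 2h lay above every library at 0h, and every library at 4h lay above every library at 2h. In rev it had 49.4 and 50.2 CPM in clone 4 and 32.8 and 43.3 in clone 8, a range that overlaps that of 4h. These levels rest on 15 to 585 Cavin1 counts per library.

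The group means of Cavin1 (± SD, n = 4) were 4.14 ± 1.06 CPM at 0h and 23.8 ± 4.62 at 2h. At 4h the mean was 47.4 ± 14.9 CPM, and after the inhibitor 43.9 ± 8.01. The fitted log2 fold change was 2.52 (SE 0.17) from 0h to 2h and a further 0.97 (SE 0.11) from 2h to 4h, which made 3.49 (SE 0.15), or 11.2-fold, from 0h to 4h. From 4h to rev it was -0.15 (SE 0.11, 95% interval -0.37 to 0.07), so rev remained 3.34 (SE 0.16), or 10.1-fold, above 0h. With the library size alone as the scaling, the 4h to rev value was -0.57 while the median of all tested genes moved to -0.41, and relative to that median Cavin1 was at -0.16 under both scalings. Ranked from the largest rise downwards, Cavin1 stood 28th of 12215 tested genes at 4h against 0h and 11th in rev against 0h. The comparisons with 0h share the 0h libraries, and these values are a description, since this pattern chose the gene. Leaving out any 1 library gave 3.26 to 3.74 for 4h against 0h and -0.22 to -0.05 for rev against 4h.

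**Figure D1:**
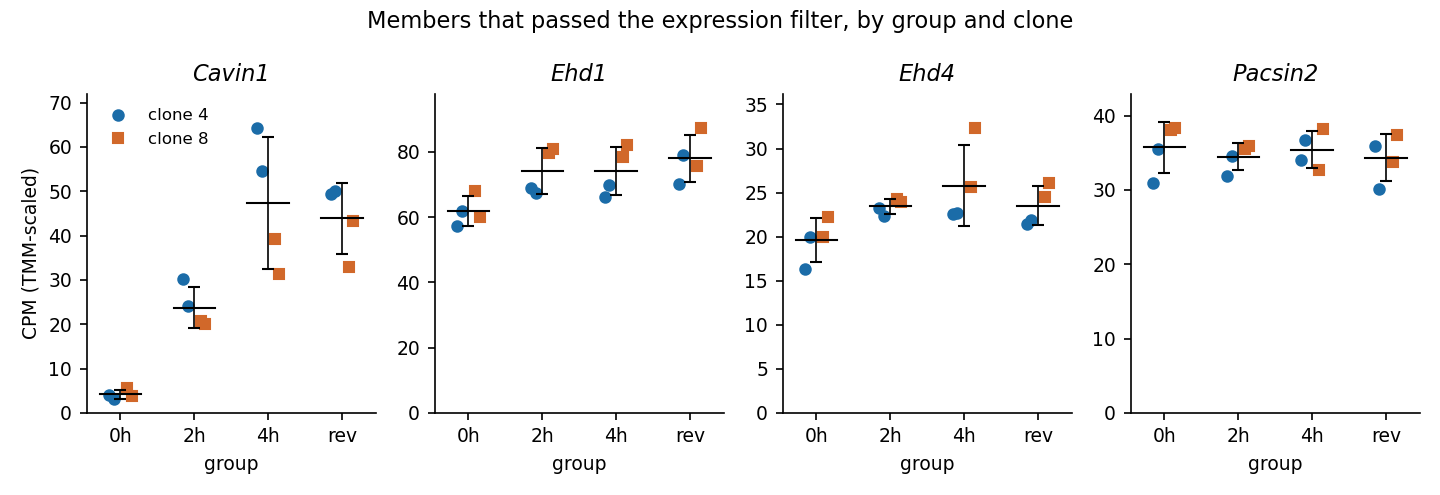
TMM-scaled CPM (vertical axes, each from 0) of the 4 genes that passed the expression filter, by group; circles are libraries of clone 4, squares libraries of clone 8, lines and bars the mean and SD of 4 libraries. Cavin1 goes from a mean of 4.14 to 47.4 CPM between 0h and 4h and stays at 43.9 in rev, whereas Pacsin2 stays between 30.2 and 38.4 CPM in all 16 libraries.

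The clones differed in their Cavin1 level, a comparison that played no part in the choice of the gene. Across the groups Cavin1 was lower in clone 8 than in clone 4, with a log2 difference of -0.50 (SE 0.09, adjusted p = 4.4e-05 by the edgeR quasi-likelihood test), where 29.1% of all tested genes differed between the clones. The sign was not the same in each group. At 0h clone 8 had the higher mean (4.68 against 3.60 CPM, n = 2 each), and at 2h, 4h and rev clone 4 had it, with 27.1 against 20.4, 59.5 against 35.3 and 49.8 against 38.0 CPM.

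Within clone 4 the log2 fold change of Cavin1 from 0h to 4h was 4.09, and within clone 8 it was 2.98. The difference in response, clone 8 minus clone 4, was -1.11 (SE 0.33, 95% interval -1.79 to -0.44), with an adjusted p of 0.132 in the edgeR model with clone-specific responses. It did not pass the threshold after adjustment, and 0.311% of all tested genes did. The 0h, 4h and rev counts also chose the gene, so the Cavin1 differences in response and their adjusted p-values are a description. For 2h against 0h the difference was -0.85 (adjusted p = 0.394), for 4h against 2h it was -0.26 (adjusted p = 1.00), for rev against 0h it was -0.83 (adjusted p = 0.458) and for rev against 4h it was 0.29 (adjusted p = 0.897). In these comparisons 0.0901%, 0.0327%, 0.0573% and 0.00819% of all genes passed. With the library size alone the difference was -0.94 at 2h, -1.78 at 4h and -1.64 in rev relative to 0h, -0.84 for the step from 2h to 4h and 0.14 for the step from 4h to rev, at adjusted p-values from 0.0738 to 1.00. Leaving out any 1 library gave -1.43 to -0.84 for 4h against 0h, -0.50 to -0.13 for 4h against 2h and 0.14 to 0.54 for rev against 4h. None of Ehd1, Ehd4 and Pacsin2 differed in response between the clones by this test in any of the 5 comparisons, with intervals of the difference within -0.54 and 0.66.

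The other cavins did not accompany Cavin1 in level. Cavin2, whose product helps to curve the membrane, had 0 counts in all 16 libraries. Cavin3, whose product binds protein kinase C delta, had 85 counts in all and 1 to 10 per library. Its mean level was 0.764 ± 0.173 CPM at 0h, 0.634 ± 0.458 at 2h and 0.698 ± 0.308 at 4h, with 1.23 ± 0.82 in rev, and the ranges of all groups overlapped. It was too low for the filter. In a fit without the filter over 31361 genes, its log2 fold changes lay between -0.70 and 0.69 and its adjusted p at or above 0.53. Of its exon bases, 22.5% also lie in a gene model on the opposite strand, and the strand setting of the counting is not given in the sources used here. The muscle cavin, Cavin4, had 134 counts in all and was not tested either.

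The caveolins were not detected. Cav1 and Cav2 had 0 counts in all 16 libraries, 106916169 counts together, and so had the muscle caveolin Cav3, a relative outside the 9. A count of 0 allows up to 3 counts over all libraries, which is 0.0271 CPM, and covers counting error only. Per length, Cavin1 at 4h was at least 441-fold higher than Cav1, at least 427-fold higher than Cav2 and at least 391-fold higher than Cavin2, from the counts summed over the 4 libraries (14.4 RPKM for Cavin1) and a floor of 3 counts in that sum. At 0h, with 1.14 RPKM for Cavin1, the bounds were 33.9-fold, 32.9-fold and 30.1-fold.

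These zeros concern genes with a shared position. Cav1 and Cav2 lie inside the span of Gm15581, and Cavin2 inside that of 9330175M20Rik. Both are long non-coding genes on the opposite strand that share no exon base with the members, and both had 0 counts as well. In all, 194 protein-coding genes are placed so. Of these, 55 (28.4%) had 0 counts and 40 (20.6%) had at least 1000, where 19.5% of all 21896 protein-coding genes had 0. The part of the placement in the zeros of Cav1, Cav2 and Cavin2 was not tested.

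The genes beside Cavin1 and the caveolin pair were taken as the nearest that passed the expression filter. Their expression was thus set by the choice, and any nearer gene that failed the filter was passed over. Stat3, the transcription factor of LIF signalling, lies 17.2 kb from Cavin1 and had 52.7 ± 3.25 CPM at 0h. It rose by 0.31 at 2h (adjusted p = 0.00542), 0.24 at 4h (adjusted p = 0.0228) and 0.35 in rev (adjusted p = 0.00203), all log2 against 0h, but the rev value was 0.020 with the library size alone and 0.34 relative to the median of that scaling. Atp6v0a1, a proton pump subunit 38.6 kb away on the other side, had a log2 fold change of -0.24 at 4h (adjusted p = 0.0927) and passed no test against 0h. Next to the caveolins, Tes, 175 kb from Cav2, had 40.6 ± 7.39 CPM at 0h, and the receptor gene Met, 122 kb from Cav1, had 2.18 ± 1.33. Neither passed a test against 0h, with log2 fold changes at 4h of -0.12 (Tes) and -0.63 (Met).

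Ehd1 was the most abundant of the 9 genes per length in every group. Its level was 57.3, 61.9, 68.2 and 60.1 CPM in the 0h libraries, given as clone 4 replicates 1 and 2 and then clone 8 replicates 1 and 2. It was 69.0, 67.4, 79.8 and 80.8 at 2h, 66.3, 70.0, 78.4 and 82.1 at 4h, and 70.2, 79.1, 75.7 and 87.4 in rev. The rev libraries all lay above the 0h libraries, while 2h and 4h each had 1 clone 4 library inside the 0h range. Ehd1 rose by 0.27 on the log2 scale at 2h (SE 0.07, adjusted p = 0.00822), by 0.26 at 4h (SE 0.07, adjusted p = 0.00751) and by 0.33 in rev (SE 0.08, adjusted p = 0.00207), each against 0h. The rev change was -0.0019 with the library size alone as the scaling, where the median of all genes was -0.32, and relative to that median it was 0.32. From 4h to rev its log2 fold change was 0.07 (95% interval -0.08 to 0.22, adjusted p = 0.587). With the library size alone the 2h change was 0.26 (adjusted p = 0.819) and the 4h change 0.36 (adjusted p = 0.409), so that both calls were lost. Without 0h clone 8 replicate 2 the 2h change was 0.22 (adjusted p = 0.0683) and the 4h change 0.21 (adjusted p = 0.0522). Without clone in the edgeR model they were 0.27 (adjusted p = 0.0717) and 0.25 (adjusted p = 0.0571).

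Ehd4 had 16.3, 19.99, 19.9 and 22.2 CPM in the 0h libraries in the same order, 23.3, 22.3, 24.2 and 23.9 at 2h, 22.5, 22.7, 25.6 and 32.4 at 4h, and 21.4, 21.9, 24.5 and 26.1 in rev. All libraries at 4h, and all at 2h, lay above those at 0h, by a margin as narrow as 22.3 against 22.2 CPM at 2h. The share of all tested genes whose groups separate in this way was not counted. Such separations, here and for Cavin1, Ehd1 and Ehd2, are therefore a description only. Ehd4 rose at 4h by 0.35 (SE 0.10, adjusted p = 0.00531), which did not pass with the library size alone (0.48, adjusted p = 0.257). Its log2 fold changes at 2h (0.23, adjusted p = 0.0869) and in rev (0.23, adjusted p = 0.0971) against 0h did not pass, and the latter was -0.07 with the library size alone. From 4h to rev its log2 fold change was -0.12 (95% interval -0.32 to 0.08, adjusted p = 0.447), and -0.55 with the library size alone, where the median of all genes was -0.41.

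Ehd2, the member of the family most tied to caveolae, was nearly undetected, with 73 counts in all and 1 to 9 per library. Its mean was 0.854 ± 0.470 CPM at 0h, 0.679 ± 0.196 at 2h and 0.371 ± 0.184 at 4h, with 1.02 ± 0.29 in rev. The 4h libraries (0.110 to 0.526 CPM) all lay below the rev libraries (0.640 to 1.35 CPM), on 9 counts at 4h and 20 in rev. It failed the filter, and without it the fit gave a log2 fold change of 1.35 from 4h to rev (SE 0.54, adjusted p = 0.146) and -1.19 from 0h to 4h (SE 0.54, adjusted p = 0.161). The related Ehd3 had 136 counts in all and was not tested.

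Pacsin2 showed no change that passed. Its libraries lay between 31.0 and 38.4 CPM at 0h, 31.8 and 35.9 at 2h, 32.7 and 38.2 at 4h, and 30.2 and 37.4 in rev, and every pair of groups overlapped. Its log2 fold change was -0.02 from 0h to 4h (95% interval -0.19 to 0.15, adjusted p = 0.871) and -0.05 from 4h to rev (95% interval -0.22 to 0.13, adjusted p = 0.770), and the latter was -0.47 with the library size alone. Its paralogs Pacsin1 and Pacsin3, also membrane-bending F-BAR proteins, were the 2 genes tested from a list of 5 relatives. Both were lower at 4h against 0h, Pacsin1 by 0.66 (adjusted p = 0.00391) and Pacsin3 by 0.81 (adjusted p = 0.00815), where 16.8% of all genes were. Pacsin1 was at -0.12 at 2h (adjusted p = 0.646) and -0.35 in rev (adjusted p = 0.150). Pacsin3, at 3.82 CPM at 0h, was also lower at 2h (-0.93, adjusted p = 0.00224) and in rev (-1.10, adjusted p = 0.00218).

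Among the 3 genes tested besides Cavin1, 1 rose at 2h against 0h, 2 at 4h and 1 in rev, and 0 fell. Over all tested genes, 21.1%, 33.9% and 22.3% passed in those comparisons, with 11.4%, 17.2% and 12.4% higher and 9.68%, 16.8% and 9.86% lower. Between 2h and 4h, where 7.32% of all genes passed, and between 4h and rev, where 16.4% did, 0 of the 3 passed by edgeR; at an unadjusted p below 0.05 and by DESeq2 the count was also 0. With so few genes, these shares cannot be set apart from the background. Between the clones, Ehd1 (0.17, adjusted p = 0.0134) and Ehd4 (0.20, adjusted p = 0.0249) were higher in clone 8, the opposite direction to Cavin1, except that with the library size alone they were at -0.09 and -0.05, where the median of all genes was -0.26. In the edgeR fit without the filter both calls were lost, Ehd1 at 0.17 (adjusted p = 0.0603) and Ehd4 at 0.21 (adjusted p = 0.0956). Pacsin2 did not pass (0.09, adjusted p = 0.266). Of all tested genes 15.4% were higher and 13.7% lower in clone 8. The Ehd4 difference lost its call on leaving out any of 4 libraries, with values of 0.16 to 0.19. The libraries left out were 4h clone 4 replicates 1 and 2, 4h clone 8 replicate 2 and rev clone 4 replicate 1.

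**Figure D2:**
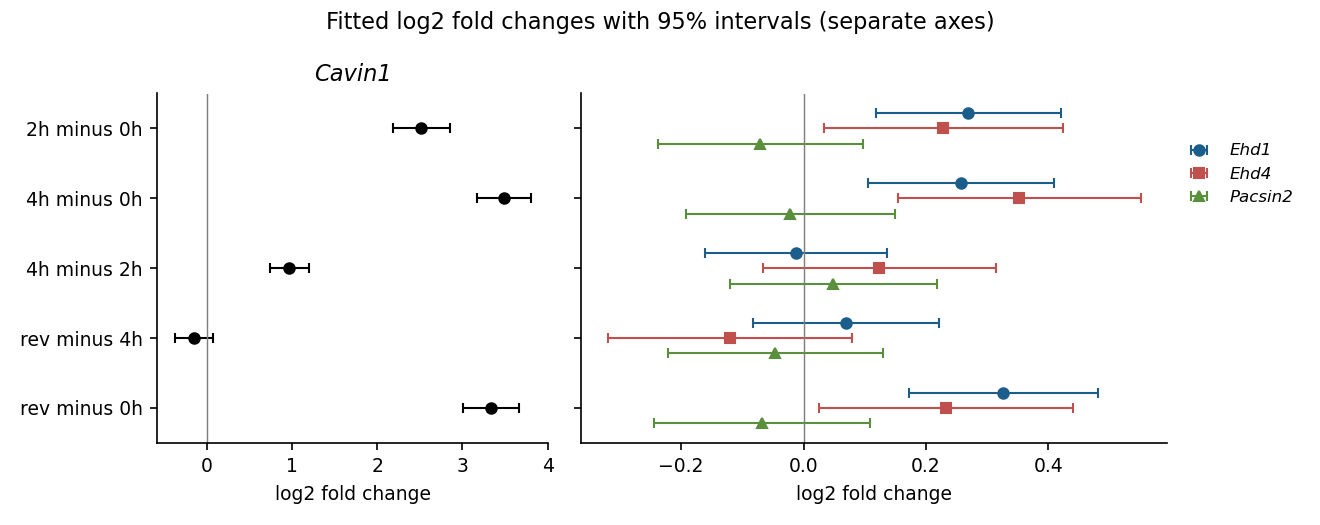
Fitted log2 fold changes (horizontal axes, which differ between panels) with 95% intervals for the 5 comparisons; Cavin1 is on the left, Ehd1, Ehd4 and Pacsin2 on the right, 4 libraries per group. The Cavin1 changes against 0h lie between 2.52 and 3.49, and those of the other genes between -0.07 and 0.35; scaled by library size alone, the rev minus 0h values of Ehd1 and Ehd4 turn to -0.0019 and -0.07.

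Per length, the order of the genes changed with Cavin1 alone. At 0h Ehd1 had 16.7 RPKM, Pacsin2 7.28, Ehd4 4.90, Cavin1 1.16, Cavin3 0.460 and Ehd2 0.167, and no neighbours in this order overlapped in their libraries. At 2h Cavin1 (6.62 RPKM) stood between Pacsin2 (7.02) and Ehd4 (5.85) and overlapped both. At 4h Cavin1 stood after Ehd1, with 13.2 ± 4.15 RPKM against 20.03 ± 1.97, and their ranges met, at 17.9 RPKM in each. In rev it kept this place with 12.2 ± 2.23 RPKM against 21.1 ± 1.94 for Ehd1, without overlap. The order was the same when the longest transcript replaced the merged exons as the length.

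**Figure D3:**
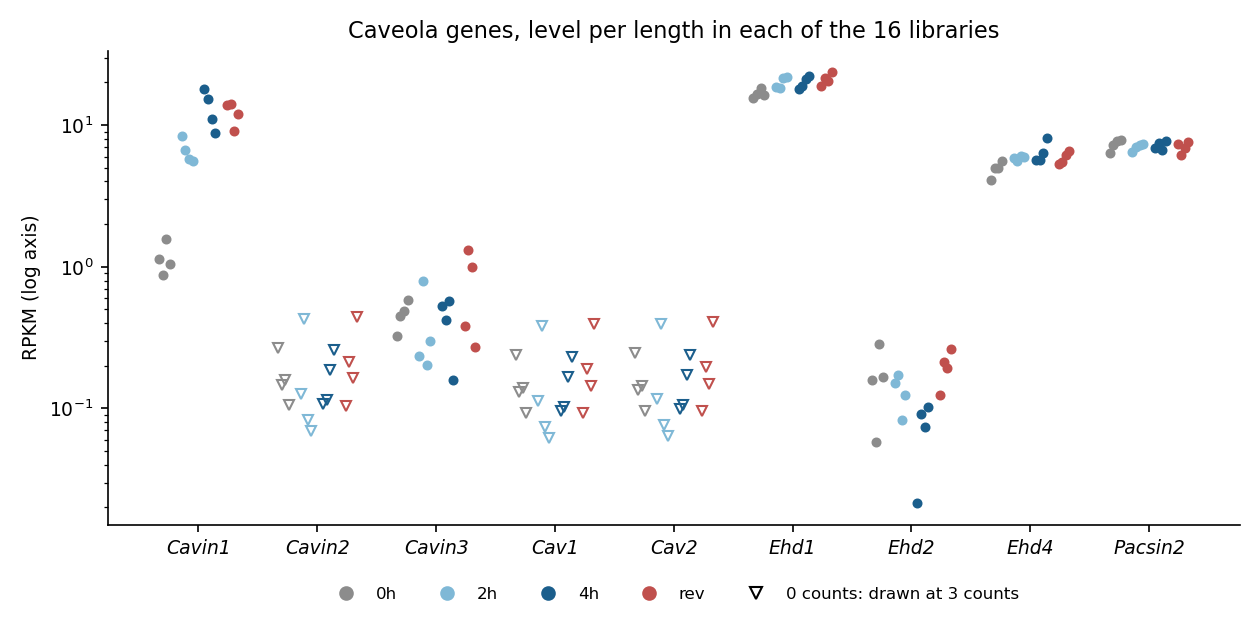
RPKM of the 9 genes in each of the 16 libraries (logarithmic vertical axis), coloured by group; filled points are measured values, and open triangles stand for libraries with 0 counts, drawn at the level that 3 counts would give. Cavin1 rises from about the level between Cavin3 and Ehd4 to that between Pacsin2 and Ehd1, while Cavin2, Cav1 and Cav2 have only triangles.

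Cells that are rich in caveolae have markers of their own, and their levels were as follows. Of 7 fibroblast markers 5 were counted, at a summed 8.36 to 13.0 CPM at 0h and 4.21 to 8.47 at 4h, with Pdgfrb the highest at 0h and Dcn and Postn at 0 in every library. The fall of this sum followed Pdgfrb (8.05 ± 2.59 CPM at 0h and 2.18 ± 0.80 at 4h). Col1a1, a collagen chain, rose at 2h by 1.57 (adjusted p = 0.00603) and in rev by 1.93 (adjusted p = 0.00136) against 0h, from 0.519 ± 0.252 CPM at 0h, and was at 1.01 ± 0.38 at 4h. Lum, a proteoglycan, was not tested and had 0.0267 ± 0.0535 CPM at 0h, 1.32 ± 0.64 at 4h and 0.442 ± 0.310 in rev. The part of these fibroblast markers in the Cavin1 change was not tested. The 6 endothelial markers summed to 52.2 to 70.0 CPM at 0h and 53.3 to 67.4 at 4h, most of it Pecam1, which embryonic stem cells also express, and Emcn was at 0. Adipocyte markers, mostly Lpl, summed to 16.8 to 25.6 CPM at 0h and 16.4 to 22.6 at 4h. Muscle markers (at most 6.13 CPM, mostly Des) and primitive endoderm markers (at most 6.31 CPM, mostly Gata4) stayed low in all libraries. Trophoblast markers, led by Eomes, summed to 5.97 to 9.30 CPM at 0h, 12.1 to 16.9 at 4h and 10.9 to 14.0 in rev, and 2 of the 4 tested rose at 4h, where 17.2% of all genes did. In rev 1 of the 4 was higher than at 0h, where 12.4% of all genes were. From 4h to rev 1 fell, Eomes by 0.53 (adjusted p = 0.0472), where 16.4% were called, and it was at -0.94 with the library size alone. Their part in the Cavin1 change was not tested, and in bulk RNA fewer cells with a transcript and less transcript per cell cannot be told apart.

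The partners of caveolae were compared from a list of 16 genes, of which 8 passed the filter. At 4h against 0h 3 rose and 1 fell, where 17.2% of all tested genes were higher and 16.8% lower, and the median log2 fold change was 0.14 where that of all genes was -0.02. Bin1, a membrane-tubulating protein, rose by 0.67 (adjusted p = 0.0426) and fell by 0.82 from 4h to rev (adjusted p = 0.0337). Flna, an actin crosslinker that binds caveolin-1, rose by 0.36 (adjusted p = 0.000109), and Src, the kinase that phosphorylates caveolin-1, rose by 0.24 (adjusted p = 0.0162). Abl1, another kinase of caveola dynamics, fell by 0.31 (adjusted p = 0.00396) and was 0.53 higher in rev than at 4h (adjusted p = 2.6e-05). With the library size alone these values were -0.20 and 0.092, and the latter was 0.50 relative to the median. Dnm2, the dynamin that severs membrane necks, was at 79.0 CPM at 0h and rose at 2h by 0.24 (adjusted p = 0.0216), while its log2 fold change was 0.13 at 4h (adjusted p = 0.205) and 0.07 in rev (adjusted p = 0.576). The rev value of Dnm2 turned to -0.25 with the library size alone and was 0.066 relative to the median of that scaling. Ror1, a receptor that scaffolds cavin-1 and caveolin-1, had 33 counts in all and was not tested.

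A list of genes of other membrane structures, clathrin with its adaptors and the flotillins Flot1 and Flot2, passed the filter in 17 of 17 cases. At 4h against 0h 3 rose and 1 fell, that is 4 of 17 where 33.9% of all tested genes were called, with a median of 0.03. The clathrin assembly protein Picalm rose by 0.43 (adjusted p = 5.6e-05), the clathrin light chain Clta by 0.23 (adjusted p = 0.0364) and the heavy chain Cltc by 0.18 (adjusted p = 0.0439; 0.28 with the library size alone). The adaptor Epn2 fell by 0.54 (adjusted p = 2.2e-06). From 4h to rev, where 16.4% of all genes were called, 2 of the 17 rose and 2 fell. Clta fell by 0.33 (adjusted p = 0.00920) and Picalm by 0.29 (adjusted p = 0.0106), or by 0.76 and 0.70 with the library size alone. The light chain Cltb rose by 0.52 (adjusted p = 0.0281; 0.12 with the library size alone). Epn2 rose by 0.28 (adjusted p = 0.0195), which turned to -0.16 with the library size alone and was 0.25 relative to its median.

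Targets of SRF and of YAP with TEAD, transcription factors of actin and membrane tension, were a list of 16 genes, of which 11 were tested. Acta2, Tagln, Cnn1, Myl9 and Ankrd1 failed the filter, with 3, 12, 8, 34 and 2 counts in all. At 2h and at 4h 9 of the 11 tested rose and 0 fell, where 11.4% and 17.2% of all tested genes were higher, with a median log2 fold change of 0.75 and 0.67. From 2h to 4h 3 of the 11 fell, Ccn1 by 0.84, Ccn2 by 1.14 and Amotl2 by 0.84, where 7.32% of all genes were called in either direction. At 4h the largest changes were in Ccn1, a matricellular protein (1.09, adjusted p = 0.000155), Srf itself (0.97, adjusted p = 3.3e-10) and the calponin Cnn2 (0.89, adjusted p = 0.00201). In rev 7 of the 11 were still higher than at 0h, where 12.4% of all tested genes were, and of these Flna (0.28) turned to -0.05 with the library size alone. From 4h to rev 1 fell, Ccn1 by 0.59 (adjusted p = 0.0449; -0.98 with the library size alone), where 16.4% of all genes were called in either direction. Srf had 21.7 CPM at 0h, 42.3 at 4h and 39.9 in rev. Flna is on this list and on that of the partners.

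The 5 genes whose log2 fold changes at 2h, 4h and rev against 0h lay closest to those of Cavin1 were sought among 9179 genes with a mean of at least 5 CPM in some group. They were Pla2g7, a secreted phospholipase (root mean square difference 0.49), the surface oxidase gene Enox1 (0.52), the neurofilament gene Nefm (0.65), the EGR corepressor Nab2 (0.65) and the ectonucleotidase gene Nt5e (0.66). The likeness rests on 3 values that share the 0h libraries. From 4h to rev the log2 fold change was -1.34 for Pla2g7, -0.53 for Enox1, -1.30 for Nefm, -0.37 for Nab2 and -0.78 for Nt5e, beside -0.15 for Cavin1. With the library size alone they were, in this order, -1.74, -0.95, -1.74, -0.78 and -1.17, beside -0.57 for Cavin1. The median of all genes was then -0.41. These values are a description with no test, since the 5 were chosen on the same libraries and Pla2g7 and Nt5e reached 5 CPM only at 4h. With a minimum of 2 CPM, 2 of the 5 remained, Pla2g7 and Enox1.

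**Figure D4:**
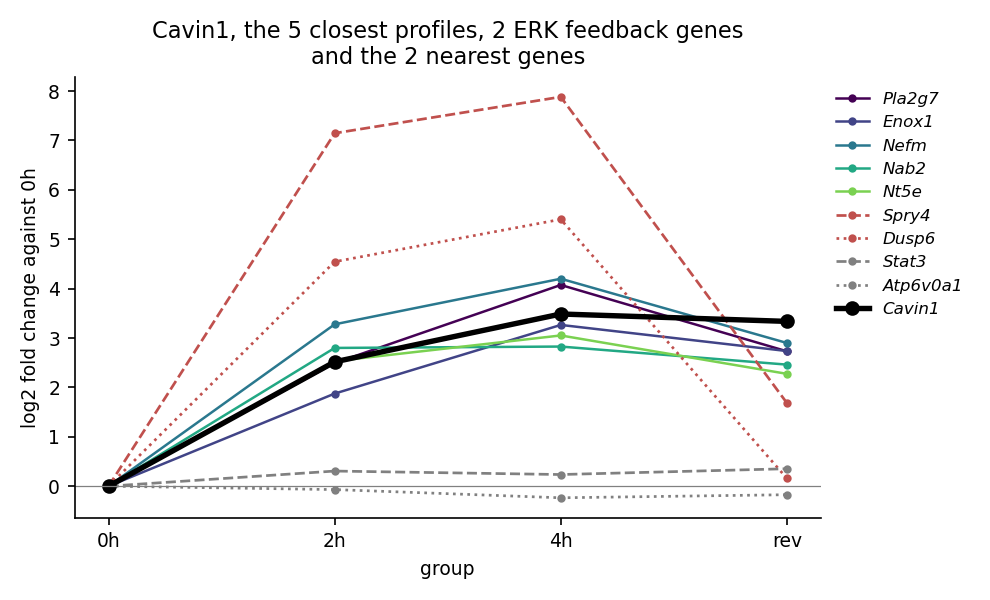
Fitted log2 fold change against 0h (vertical axis) at 2h, 4h and rev for Cavin1 (thick black), the 5 genes with the closest profile (thin solid lines), the ERK response genes Spry4 and Dusp6 (red) and the nearest tested genes Stat3 and Atp6v0a1 (grey); 4 libraries per group. Cavin1 is at 3.49 at 4h and 3.34 in rev, while Spry4 goes from 7.88 to 1.69 and Dusp6 from 5.40 to 0.16.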

How the data were processed

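The authors deposited raw read counts per gene for 16 libraries, per the labels; the submitters' processing notes name bcl2fastq 2.19.1, STAR 2.5.3a and the build mm10. The counting tool, annotation and strand setting are not given in the sources used here. Of 52636 identifiers, 52489 matched GENCODE M21 (GRCm38), which gave symbols, positions and exon lengths.

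Counts were analysed with edgeR 4.0.16, limma 3.58.1 and DESeq2 1.42.0 in R 4.3.3. After filterByExpr, 12215 genes remained. TMM scaling and a quasi-likelihood fit with group and clone over all libraries gave 5 two-sided contrasts and the clone effect; 8 group and clone cells gave differences in response between the clones. Benjamini-Hochberg adjustment ran over all tested genes, with calls below 0.05. Intervals are at 95%. The steps were tested on simulated counts. Of the 9 genes, 6 were detected and 4 (Cavin1, Ehd1, Ehd4, Pacsin2) tested. A count of 0 was given a floor of 3 counts.

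The members and gene lists were chosen with earlier results of these data known. Genes named were the members; the 5 profiles closest to Cavin1; the nearest tested gene on each side of Cavin1 and of the caveolin pair; up to 3 called genes per direction of each list at 4h against 0h; Spry4 and Dusp6; and the leading gene of each marker list. Nanog, Dnm2, Ror1, Cltb, Ccn2, Amotl2, Flot1, Flot2, Col1a1 and Lum lie outside this rule and were chosen after they were seen. So were Cav3, Cavin4, Ehd3, the 2 antisense genes, the markers at 0 and the SRF and YAP targets that failed the filter. Nothing says how the replicates of a clone were separated, so p-values measure the spread between these libraries. Replicates differed beyond sampling noise (chi-square per degree of freedom 2.97 to 79.4). Alternatives were other scalings, filters, designs, DESeq2, the replicate block and leaving out each library.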

Additional observations from a re-analysis of the deposited data

Results flagged for a closer look

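The Cavin3 level of 2h clone 4 replicate 2 stood apart from the other libraries of its group, at 1.31 CPM where the others had 0.338 to 0.497. It rests on 3 counts in the library with the fewest counts of all. This was 1 of 24 groups of 4 libraries examined, and chance marks about 1 group in 20.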

How the results depend on the processing

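Calls of the weakly changed members depended on the processing, and the Cavin1 values against 0h kept their direction under every alternative run. The library size alone gave Cavin1 2.45, 3.55 and 2.98 at 2h, 4h and rev against 0h, where the chosen fit gave 2.52, 3.49 and 3.34. With the library size alone as the scaling, 0 members other than Cavin1 were called higher at 2h (1 in the chosen fit), 4h (2) and rev (1) against 0h, and 0 were higher in clone 8 (2). All genes called higher and lower then numbered 204 and 134 at 2h against 0h (1390 and 1182 in the chosen fit), 554 and 327 at 4h against 0h (2098 and 2048), 88 and 12 at 4h against 2h (464 and 430), and 57 and 1671 at rev against 4h (969 and 1030). Genes called higher were 105 at rev against 0h (1518) and 288 in clone 8 (1886). Turned in sign were Pacsin2 at 4h against 0h (0.086), Ehd1 at 4h against 2h (0.10), at rev against 4h (-0.36) and at rev against 0h (-0.0019), Ehd4 at rev against 0h (-0.075), and the clone differences of Ehd1 (-0.091) and Ehd4 (-0.048); the clone difference of Pacsin2 was -0.16. The median of all genes moved with them, to 0.09 for 4h minus 0h, 0.10 for 4h minus 2h, -0.41 for rev minus 4h, -0.32 for rev minus 0h and -0.26 between the clones. Without clone in the model, the calls higher among members other than Cavin1 numbered 0 at 2h and 1 at 4h; genes called higher and lower numbered 747 and 462 at 2h, 129 and 90 at 4h against 2h, 418 and 463 at rev against 4h, 876 and 576 at rev against 0h, and 1323 were lower at 4h against 0h. Without a filter 0 members were called higher in clone 8, and with DESeq2 1 was, Ehd4 being at an adjusted p of 0.0529. With a minimum of 2 CPM, 2 of the 5 genes most like Cavin1 remained. The cause was not tested. Leaving out each library in turn gave 0 to 1 members other than Cavin1 called higher at 2h, 1 to 2 at 4h, and 1 to 2 members higher in clone 8. Ehd1 at 4h against 2h ran from -0.034 to 0.015 and Pacsin2 at 4h against 0h from -0.063 to 0.038. Genes called lower at 2h numbered 743 to 1286, those called higher and lower at 4h against 2h 303 to 510 and 260 to 457, and those higher at rev against 4h 644 to 1026.

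The replicate numbers did not pair the libraries: over 12 same-numbered pairs, correlations of deviations from the group means ran from -0.32 to 0.21, with 7 positive. With the replicate block, Cavin1 was at 3.47 at 4h against 0h, Ehd1 at 0.26 and Ehd4 at 0.36, 2 members other than Cavin1 were called higher and 2072 of all genes were. Depth limits what can be read from Cavin3 and Ehd2, at most 10 counts in any library. The cause of the zeros of Cav1, Cav2 and Cavin2 was not tested.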
